A study of Mus musculus with 18 samples.

Results

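Cd40, Cd80, Cd83, Cd86, Cd274, Icosl, Tnfsf9 and Icam1 encode costimulatory and adhesion molecules that antigen-presenting cells carry on their surface. Their mRNA was followed through 22 h of stimulation with R848, with or without apilimod, in the mouse macrophage line RAW. The 8 genes were picked by name, and every probe set listed for them alone on the Affymetrix mouse array was taken, 15 of 45101 probe sets for 8 of 18193 genes. A gene's values are those of its brightest probe set over the 18 arrays, and the other probe sets served as a check. All 8 passed the filter on low values (an intensity above 18.1 on at least 3 arrays), as did 12257 genes in all, which were tested together.

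The medium group was in DMEM with nothing added, with 2 arrays at 0 h and 1 array at each of 1, 3, 7 and 22 h. The 3 stimulated groups all received R848, a small agonist of Toll-like receptor 7 in mouse cells, at 0.1 mM as the labels give it. They were R848 alone, R848+apilimod (1 uM apilimod, an inhibitor of the lipid kinase PIKfyve) and R848+API09 (1 uM API09, an analog of apilimod that the series design calls inactive). Each of them had 1 array at 1, 3, 7 and 22 h. No label says whether arrays came from separate cultures, so the p values cover the spread among arrays only, and that spread may be technical. The number of arrays limits the precision. R848 alone and R848+API09 at the same hour were treated as 2 control arrays ("R848 controls"). The distances within these 4 pairs and between the 2 medium arrays at 0 h gave the spread for the tests within hours.

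A T cell needs a signal through its antigen receptor and a costimulatory signal from the cell that presents the antigen. CD80 and CD86 give that signal through CD28 and are also bound by the inhibitory receptor CTLA-4. ICOS ligand acts through ICOS, and 4-1BB ligand (Tnfsf9) through 4-1BB. PD-L1, the product of Cd274, acts through PD-1 and restrains T cells. CD40 is the receptor for CD40 ligand and signals back into the presenting cell, CD83 marks maturing dendritic cells, and ICAM-1 binds the integrins LFA-1 and Mac-1.

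The arrays carried macrophage markers and low levels of most markers of other immune cells. Of 8 macrophage markers 7 passed the filter, and Mertk, at 7.35 to 12.2, did not. Intensity ran from 4778 to 8931 for Cd68 and from 390.1 to 2019 for Adgre1. Of 7 T cell markers 4 passed, with Zap70 the brightest (159.2 to 255.5) and Cd3g, Cd2 and Cd5 all under 12. The summed intensity of the 7 T cell markers was 249.8 to 289.1 on medium, 260.5 to 298.2 with R848 alone, 275.4 to 360.2 with R848+API09 and 241.1 to 359.4 with R848+apilimod, and these ranges overlapped. Of 5 B cell markers 1 passed, and of 5 dendritic cell markers 3 did. The R848+API09 array at 22 h was the dimmest at its upper quartile (87.0, against 100.9 to 118.6 on the others). Its median intensity, 19.2, was the highest of all arrays, so it is called dim below for its upper quartile only.

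**Figure D1:**
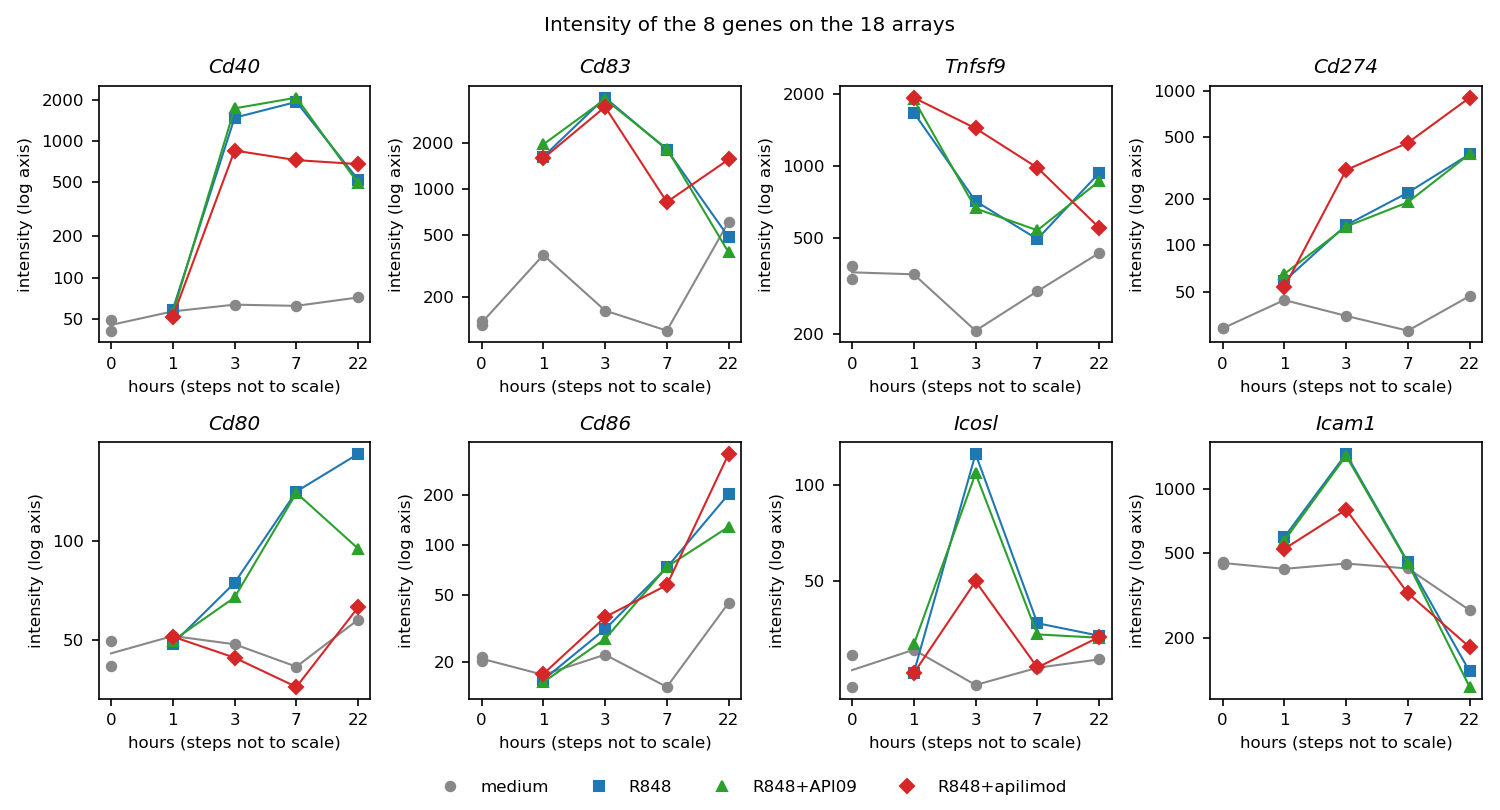
Intensity (log axis) of the 8 genes on each of the 18 arrays against the hour (steps not to scale), with 1 point per array and lines for medium, R848, R848+API09 and R848+apilimod. R848+apilimod lay above both controls for Cd274 at 3, 7 and 22 h, and below both for Cd40 at 3 and 7 h.

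The first comparison asked what R848 did to the 8 genes. Tnfsf9 and Cd83 rose within 1 h, so that 2 of the 8 were called, where 0.702% of all tested genes were, 0.636% higher and 0.0653% lower (limma, Benjamini-Hochberg adjusted p of 0.05). By 3 h 6 had risen and 0 had fallen (background 15.4%, of which 6.23% higher and 9.19% lower). The counts were 6 and 0 at 7 h (background 29.8%, of which 11.3% higher and 18.5% lower), and 5 and 2 at 22 h (background 45.7%, of which 16.5% higher and 29.1% lower). The median log2 difference of the 8 genes was 1.66 at 3 h, 1.51 at 7 h and 1.02 at 22 h, while over all genes it was -0.03, -0.04 and -0.03. In bulk RNA, less RNA per cell and fewer cells of a kind cannot be told apart. At 1, 3 and 7 h the R848+API09 array at 22 h enters only the spread, so leaving it out changes no difference. Leaving out the dim R848+API09 array at 22 h, the 3 h comparison called 3032 genes in place of 1891, and Cd80 (0.43, adjusted p = 0.00613) and Cd86 (0.25, adjusted p = 0.0305) passed there too.

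**Figure D2:**
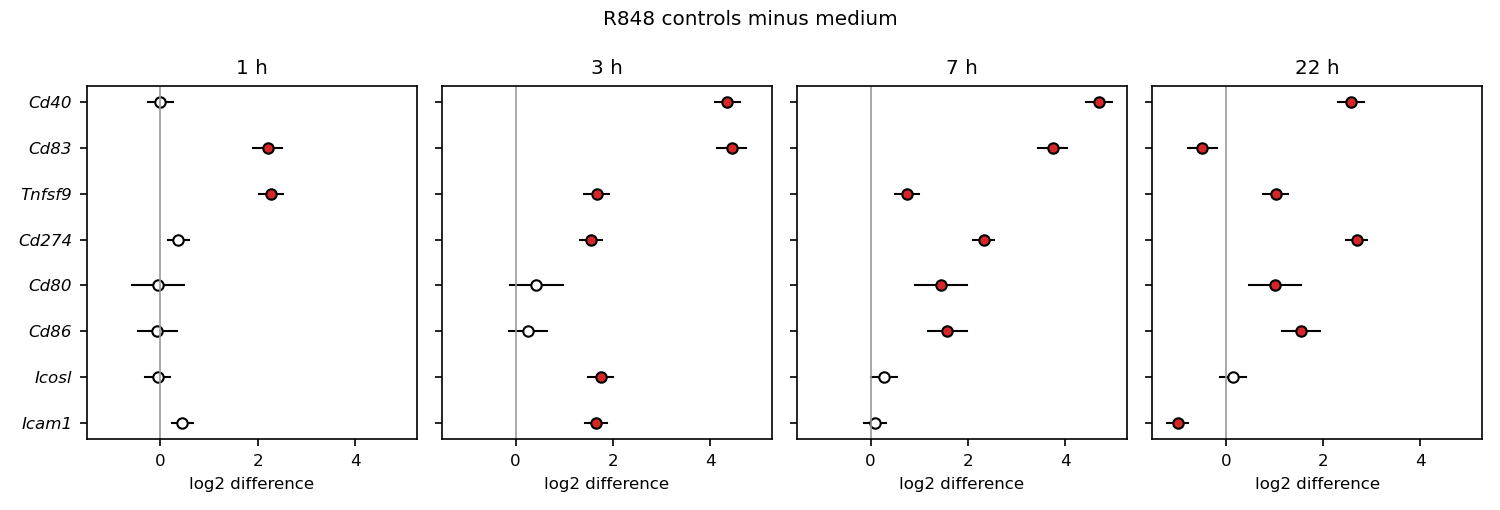
Log2 difference of the R848 controls (2 arrays) from medium (1 array) for each gene at 1, 3, 7 and 22 h, with 95% intervals as bars; filled points passed an adjusted p of 0.05. Cd40 stood at 4.35 at 3 h, and Cd83 and Icam1 lay below 0 at 22 h.

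Cd40, the receptor gene, was low in medium and on the 1 h arrays, and high with R848 from 3 h on. Its intensity on the 6 medium arrays was 40.8 at the lowest, 59.3 at the median and 71.4 at the highest. With R848 alone it was 58.3, 1483, 1936 and 521.4 at 1, 3, 7 and 22 h, and with R848+API09 54.8, 1736, 2081 and 489.5. The 1 h arrays lay within the range of medium, and all later ones lay above it. Cd40 rose by 4.35 ± 0.12 (standard error) at 3 h (adjusted p = 1.29e-09), by 4.70 ± 0.12 at 7 h (adjusted p = 4.21e-10) and by 2.58 ± 0.12 at 22 h (adjusted p = 5.36e-08). Its 2 other probe sets gave 4.24 and 3.62 for the 3 h difference.

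Tnfsf9, the 4-1BB ligand gene, was early. Its medium arrays lay between 206.4 and 434.8 (median 347.1). R848 alone gave 1672, 714.9, 496.8 and 936.4 at the 4 hours, and R848+API09 1896, 666.7, 540.5 and 865.7. All 8 stimulated control arrays lay above all 6 medium arrays, with the 1 h arrays highest. The rise was 2.28 ± 0.11 at 1 h (adjusted p = 5.47e-07), then 1.67 ± 0.11, 0.75 ± 0.11 and 1.02 ± 0.11 at the later hours (adjusted p = 2.09e-06, 4.56e-04 and 4.05e-05).

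Cd83 was early as well, and it moved in medium. Its medium arrays ran from 120.4 to 614.1 (median 150.6), with the 1 h array at 373.1 and the 22 h array at 614.1. R848 alone gave 1619, 3918, 1801 and 487.4, and R848+API09 1948, 3824, 1824 and 387.5. At 22 h both controls lay below the medium array of that hour. Cd83 rose by 2.20 ± 0.14 at 1 h (adjusted p = 4.15e-06), by 4.44 ± 0.14 at 3 h and by 3.74 ± 0.14 at 7 h. At 22 h it fell by 0.48 with a standard error of 0.14 (adjusted p = 0.0139). That fall did not pass with arrays centred on their medians (-0.26, adjusted p = 0.0751) or against R848 alone (-0.32, adjusted p = 0.139).

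Among the B7 family genes, Cd274 climbed through the 22 h and Icosl came and went. Cd274 lay at 28.0 to 46.9 on medium (median 31.9). It reached 58.7, 135.0, 219.4 and 389.6 with R848 alone and 65.2, 132.2, 190.0 and 390.6 with R848+API09. Every one of these 8 arrays lay above the medium arrays. The 1 h difference of 0.37 ± 0.10 did not pass (adjusted p = 0.311), and Cd274 then rose by 1.56 ± 0.10, 2.32 ± 0.10 and 2.69 ± 0.10 at 3, 7 and 22 h (adjusted p = 1.27e-06, 2.77e-08 and 8.21e-09).

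Icosl was dim, at 23.2 to 30.3 on medium (median 27.4). R848 alone gave 25.7, 125.1, 36.7 and 33.6, and R848+API09 31.5, 108.5, 33.9 and 33.1. The 3 h arrays stood clear of medium, and the others lay close to its range. Icosl rose by 1.75 ± 0.12 at 3 h (adjusted p = 2.18e-06). Its differences of 0.27 ± 0.12 at 7 h (adjusted p = 0.128) and 0.16 ± 0.12 at 22 h (adjusted p = 0.315) did not pass. With centred arrays the 22 h difference was 0.38 and passed (limma, adjusted p = 0.0335). Another probe set for Icosl was never above the filter level.

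Cd80 and Cd86, the CD28 ligand genes, came late. Cd80 lay between 41.5 and 57.7 on medium (median 49.0), at 48.7, 74.6, 141.4 and 183.9 with R848 alone and at 49.8, 67.4, 140.0 and 94.8 with R848+API09. Both controls were above medium from 3 h on, alike at 7 h and far apart at 22 h. Cd80 rose by 1.45 ± 0.25 at 7 h (adjusted p = 9.68e-04) and by 1.01 ± 0.25 at 22 h (adjusted p = 0.00614). Against R848+API09 alone the 22 h difference was 0.59 and did not pass (adjusted p = 0.109).

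Cd86 lay between 14.1 and 45.0 on medium (median 20.8), highest at 22 h. R848 alone gave 15.5, 31.3, 73.4 and 202.5, and R848+API09 15.0, 27.3, 74.0 and 128.8. The 7 and 22 h arrays lay above all medium arrays. Cd86 rose by 1.58 ± 0.18 at 7 h (adjusted p = 5.42e-05) and 1.54 ± 0.18 at 22 h (adjusted p = 5.37e-05). Its other probe set gave 1.03 and 0.22 for these differences, so the size of the late one depends on the probe set.

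Icam1, the adhesion gene, was already bright in medium, at 269.6 to 453.3 (median 433.4), lowest at 22 h. R848 alone gave 592.6, 1455, 453.1 and 139.2, and R848+API09 571.0, 1426, 448.0 and 117.8. The 1 and 3 h arrays lay above all medium arrays, and the 22 h arrays below all of them. Icam1 rose by 1.66 ± 0.10 at 3 h (adjusted p = 7.42e-07) and fell by 0.99 (standard error 0.10, adjusted p = 1.97e-05) at 22 h. The 1 h difference of 0.45 ± 0.10 did not pass (adjusted p = 0.109), but did without the R848+API09 array at 22 h (adjusted p = 0.00689). It also passed with quantile normalization, centred arrays or trend and robust variances (limma, adjusted p = 0.00781, 0.0246 and 0.0459).

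RefSeq promoters (build GRCm38.p6) were found for 4 of the 8 genes, Cd274, Cd80, Icam1 and Icosl. The 250 bases before the start are printed for Icam1 and Icosl, which peaked together at 3 h, and for Cd274, which did not. The windows are chr9:21015690-21015939, chr10:78069118-78069367 and chr19:29367188-29367437, on the plus strand, written 5′ to 3′. Capitals mark matches to the motifs given after them. The starts used for Cd274 and Cd80 lie inside the spans that the RefSeq gene table has for them.
Icam1: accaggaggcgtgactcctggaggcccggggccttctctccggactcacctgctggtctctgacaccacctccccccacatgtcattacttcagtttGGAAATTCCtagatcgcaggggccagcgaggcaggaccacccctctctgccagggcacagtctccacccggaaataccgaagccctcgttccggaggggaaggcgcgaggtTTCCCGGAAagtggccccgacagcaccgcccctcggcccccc
Icosl: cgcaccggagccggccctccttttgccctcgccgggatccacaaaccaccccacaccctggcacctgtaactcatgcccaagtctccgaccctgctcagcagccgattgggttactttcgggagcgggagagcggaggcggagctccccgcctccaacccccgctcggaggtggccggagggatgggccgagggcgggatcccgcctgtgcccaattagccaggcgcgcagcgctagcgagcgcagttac
Cd274: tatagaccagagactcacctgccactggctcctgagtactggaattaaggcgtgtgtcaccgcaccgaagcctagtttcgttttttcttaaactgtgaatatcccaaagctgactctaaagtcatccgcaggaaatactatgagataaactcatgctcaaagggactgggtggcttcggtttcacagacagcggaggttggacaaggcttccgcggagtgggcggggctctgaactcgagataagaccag

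Motifs were searched on both strands of 300 bases, the 250 before the start and 50 after it. TTCNNNGAA, the gamma-activated site bound by STAT proteins, was in Icam1 at -42 to -34 from the start, and 8.30% of the 32851 promoters in the table hold it. The AP-1 motif TGANTCA was in Cd80 at -42 to -36 from such an inner start (7.81% of promoters). The kappaB consensus (4.51% of promoters), the interferon response core, GAAA and GAAA with any 2 bases between (3.44%) and the E-box CACGTG (7.15%) were in 0 of the 4. A kappaB variant, GGAAATTCC, was searched after the sequences had been seen and was in Icam1 at -153 to -145 (0.317% of promoters). These are matches of letters, not binding sites.

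Time in medium alone also moved the genes. Between 0 h (2 arrays) and 22 h (1 array) 4 of the 8 rose and 1 fell, beside 22% of all genes called, 11.2% higher and 10.8% lower. Cd83 rose by 2.06 ± 0.14, Cd86 by 0.73 ± 0.18, Cd40 by 0.52 ± 0.12 and Cd274 by 0.49 ± 0.10, and Icam1 fell by 0.70 (standard error 0.10). Without the second 0 h array 3 were called, with Cd40 at an adjusted p of 0.0735 and Cd86 at 0.0538. With the mean over its probe sets the Cd40 difference was 0.26 and did not pass (adjusted p = 0.0867). Without the first 0 h array, Cd86 did not pass (adjusted p = 0.0652). Without the R848+API09 array at 22 h, which enters only the spread here, more of the 8 were called, and so were more of all genes. Without either 0 h array fewer of all genes were called.

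The R848 effect at 22 h was tested directly against that at 3 h, and 7 of 8 genes were called (25.3% of all genes, 9.43% upward and 15.9% downward). It was lower at 22 h for Cd83 (-4.93 ± 0.19), Icam1 (-2.64 ± 0.14), Cd40 (-1.78 ± 0.17), Icosl (-1.59 ± 0.17) and Tnfsf9 (-0.64 ± 0.16). For Cd83 and Icam1 it went from rises at 3 h to differences of -0.48 and -0.99 at 22 h. Part of the Cd83 change lay in medium, where its intensity was 162.7 at 3 h and 614.1 at 22 h. The R848 effect was larger at 22 h for Cd86 (1.29 ± 0.25) and Cd274 (1.14 ± 0.14). The other Cd86 probe set gave R848 effects of 0.46 at 3 h and 0.22 at 22 h. The direction of this change for Cd86 thus depends on the probe set. Cd80 did not pass (0.59 ± 0.35, adjusted p = 0.251), except without the R848+API09 array at 22 h (1.01, adjusted p = 4.83e-04).

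The split of calls over all genes moved with the scaling. At 22 h 2027 genes were higher and 3570 lower with R848, against 3246 and 2979 after quantile normalization and 4505 and 2319 with centred arrays. Centring moved the median of all genes there from -0.03 to 0.19. With centring, the 3 h split of 764 higher and 1127 lower became 1109 and 945, and the 7 h split of 1389 and 2262 became 1959 and 2003. No called difference of the 8 genes within an hour changed sign under either scaling.

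Apilimod, compared next with the R848 controls, split the 8 genes. Cd274 was higher with apilimod from 3 h on, and Cd80 lower from 7 h on. Cd40 and Icam1 were lower first and higher at 22 h, Tnfsf9 was higher first and lower at 22 h, and Cd83 was lower at 7 h and higher at 22 h. At 1 h 0 of the 8 were called by limma (0 at an unadjusted p under 0.05), beside 0% of all genes (165 genes at an unadjusted p under 0.05). At 3 h 2 rose and 3 fell, with 9.19% of all genes called (5.07% higher and 4.12% lower). The 7 h comparison had 2 and 4 (19.6%, with 9.81% higher and 9.81% lower), and the 22 h comparison 5 and 2 (34.5%, with 20.2% higher and 14.3% lower). The medians of the 8 were -0.36, -0.37 and 0.43, while those of all genes were -0.03, -0.02 and 0.03. The R848+API09 array at 22 h enters the comparisons at 1, 3 and 7 h through the spread alone. Leaving out the dim R848+API09 array at 22 h, the 3 h comparison called 1870 genes in place of 1126.

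**Figure D3:**
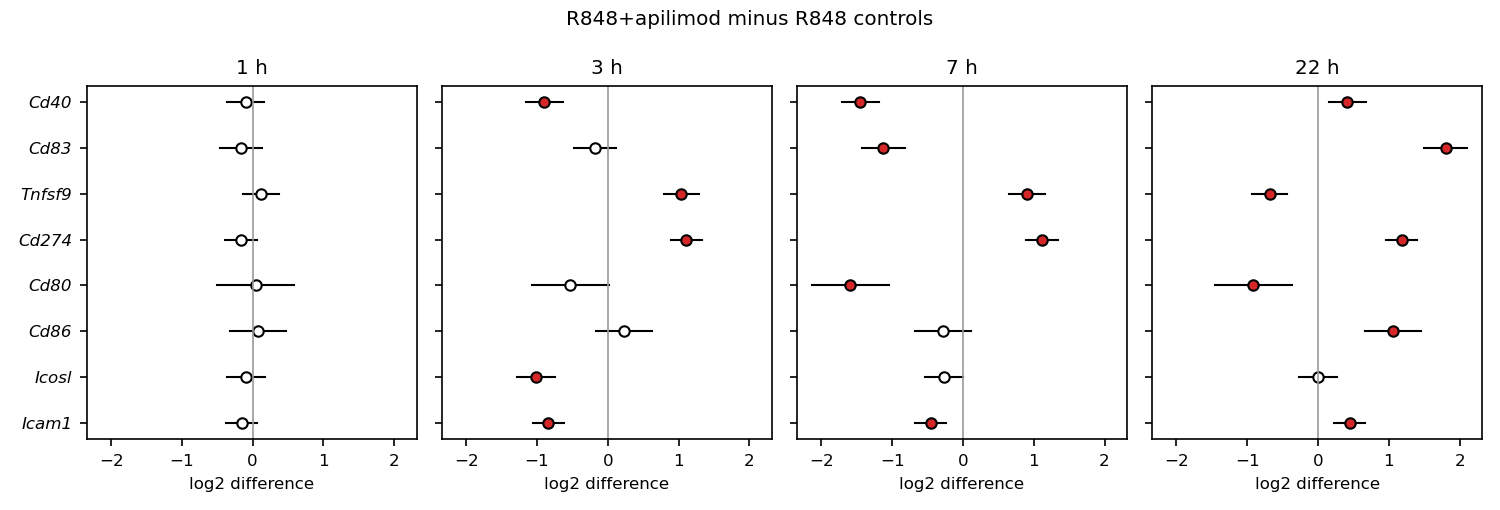
Log2 difference of R848+apilimod (1 array) from the R848 controls (2 arrays) for each gene at 1, 3, 7 and 22 h, with 95% intervals as bars; filled points passed an adjusted p of 0.05. Cd274 lay at 1.11 to 1.18 from 3 h on, and Cd40, Cd83, Tnfsf9 and Icam1 changed sides between 7 and 22 h.

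Cd274, the PD-L1 gene, was at 53.4, 307.2, 462.0 and 905.6 with R848+apilimod at the 4 hours. From 3 h on these arrays lay above both controls of their hour, which reached 389.6 and 390.6 at 22 h. Cd274 rose with apilimod by 1.11 ± 0.10, 1.12 ± 0.10 and 1.18 ± 0.10 at 3, 7 and 22 h (adjusted p = 2.52e-05, 9.95e-06 and 6.67e-06). The 1 h difference of -0.17 ± 0.10 did not pass. This effect changed by 0.07 between 3 and 22 h, with a 95% interval of -0.24 to 0.38, which missed the threshold.

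Tnfsf9 came down more slowly with apilimod. It was at 1929, 1437, 985.3 and 554.4, above both controls at 3 and 7 h and below both at 22 h. It rose by 1.04 ± 0.11 at 3 h (adjusted p = 1.08e-04) and by 0.91 ± 0.11 at 7 h (adjusted p = 1.48e-04). At 22 h it fell by 0.68 (standard error 0.11, adjusted p = 8.35e-04).

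Cd40 had a lower and flatter course with apilimod, at 51.7, 852.5, 724.9 and 678.2. It was below both controls at 3 and 7 h and above both at 22 h. The log2 difference was -0.90 at 3 h (adjusted p = 4.30e-04) and -1.45 at 7 h (adjusted p = 5.13e-06), each with a standard error of 0.12. At 22 h Cd40 rose by 0.41 ± 0.12 (adjusted p = 0.0198), which did not pass against R848 alone (0.37, adjusted p = 0.0707). The 2 other probe sets gave -1.42 and -1.67 for 7 h, and 0.32 and 0.37 for 22 h.

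Cd83 was at 1583, 3413, 823.7 and 1556 with apilimod, below both controls at 7 h and above both at 22 h. It fell by 1.12 at 7 h (standard error 0.14, adjusted p = 1.17e-04) and rose by 1.80 ± 0.14 at 22 h (adjusted p = 2.90e-06). The 3 h difference of -0.18 ± 0.14 did not pass. At 22 h, where the controls lay under medium, Cd83 with apilimod was 1.32 ± 0.16 above it (adjusted p = 4.46e-05).

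Cd80 and Cd86 parted with apilimod. Cd80 was at 51.2, 44.2, 36.0 and 62.9, within the range of the medium arrays at 1 and 3 h, below it at 7 h and above it at 22 h. Against medium of the same hour it differed by -0.10 ± 0.28, -0.14 ± 0.28 and 0.10 ± 0.28 at the 3 later hours, and none of these passed. Against the controls Cd80 was lower, at log2 differences of -1.59 ± 0.25 (adjusted p = 6.72e-04) at 7 h and -0.92 ± 0.25 (adjusted p = 0.0139) at 22 h. The 22 h value did not pass against R848+API09 alone (-0.49, adjusted p = 0.209). The 3 h difference of -0.53 ± 0.25 did not pass (adjusted p = 0.288), but did without the R848+API09 array at 22 h (adjusted p = 0.00266). The 2 other probe sets of Cd80 with signal gave -1.41 and -0.75 for 7 h.

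Cd86 was at 16.8, 37.0, 57.6 and 353.0 with apilimod, and the 22 h array lay above both controls. It rose by 1.05 ± 0.18 at 22 h (adjusted p = 9.51e-04), and its other probe set gave 1.08. The differences of 0.23 ± 0.18 at 3 h and -0.29 ± 0.18 at 7 h did not pass, the latter with an adjusted p of 0.0146 without the R848+API09 array at 22 h. At 22 h the CD28 ligand genes thus lay on opposite sides of the controls.

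Icosl and Icam1 had lower peaks at 3 h. Icosl was at 25.6, 49.7, 26.7 and 33.2 with apilimod, and its 3 h array lay below both controls and above medium. It fell by 1.01 at 3 h (standard error 0.12, adjusted p = 1.96e-04) and did not pass later (adjusted p = 0.173 and 0.99). Icam1 was at 522.2, 798.3, 323.9 and 181.0, below both controls at 3 and 7 h and above both at 22 h. It differed by -0.84 ± 0.10 at 3 h (adjusted p = 1.90e-04) and -0.46 ± 0.10 at 7 h (adjusted p = 0.00665), and rose by 0.45 ± 0.10 at 22 h (adjusted p = 0.00471).

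Set against medium, R848+apilimod raised most of the 8 genes at 3 and 7 h, and fewer at 1 and 22 h. At 1 h 2 of the 8 were higher (0.604% of all genes called, 0.547% higher and 0.0571% lower). At 3 h 6 were higher and 0 lower (16.5%, with 6.91% higher and 9.64% lower), with 5 and 1 at 7 h (31.3%, with 12.3% higher and 19.1% lower) and 4 and 1 at 22 h (47.4%, with 21.5% higher and 25.8% lower). Cd274 was above medium by 2.67 ± 0.12, 3.44 ± 0.12 and 3.87 ± 0.12, and Cd40 by 3.45 ± 0.14, 3.25 ± 0.14 and 2.99 ± 0.14, at 3, 7 and 22 h. Tnfsf9 was at 0.34 ± 0.13 at 22 h (adjusted p = 0.0538), and passed without the R848+API09 array of that hour (adjusted p = 0.0328). The call also came with quantile normalization, centred arrays, a filter at the 75th percentile or the mean over probe sets. With trend and robust variances it came too. In limma these adjusted p values ran from 0.0087 to 0.0451. Cd86 at 3 h (0.48 ± 0.21, adjusted p = 0.159) passed without the R848+API09 array at 22 h, with centred arrays or with the mean over probe sets. The R848+API09 array at 22 h enters these comparisons with medium through the spread alone. Icam1 was lower at 7 h (-0.37 ± 0.11, adjusted p = 0.03), a call lost without either 0 h array (adjusted p = 0.0543) or the R848+API09 array at 3 h (adjusted p = 0.0501). At 22 h Icam1 with apilimod was above the R848 controls but still lower than medium (-0.54 ± 0.11, limma, adjusted p = 0.00257). The 3 h comparison called 3306 genes without the R848+API09 array at 22 h, in place of 2028. Centring turned the 3 h split of 847 higher and 1181 lower into 1170 and 970, the 7 h split of 1505 and 2336 into 2056 and 2021, and the 22 h split of 2639 and 3168 into 4111 and 2549. These comparisons share the medium arrays with those of R848.

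The apilimod effect at 22 h was also tested against that at 3 h, and 6 of the 8 were called (22.8% of all genes, 13.3% upward and 9.46% downward). The change was 1.98 ± 0.19 for Cd83, 1.31 ± 0.17 for Cd40, 1.29 ± 0.14 for Icam1, 1.01 ± 0.17 for Icosl, 0.83 ± 0.25 for Cd86 and -1.72 ± 0.16 for Tnfsf9. Cd80 was at -0.39 ± 0.35, which did not pass, but did without the R848+API09 array at 22 h (-0.81, adjusted p = 0.00183). Cd86 had an adjusted p of 0.0381 and lost its call in 8 of 15 alternatives, with adjusted p values from 0.00264 to 0.222. Those included leaving out either 0 h array (adjusted p = 0.0586) and the R848+API09 array at 1 h (0.0597), 3 h (0.0631) or 7 h (0.0564).

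Apilimod and API09 were given at the same dose and hours and can be compared directly. With R848+API09 alone as the control and the spread of the fit within hours, Cd274 was higher with apilimod by 1.12 (95% interval 0.87 to 1.38) at 3 h, 1.21 (0.96 to 1.47) at 7 h and 1.18 (0.93 to 1.44) at 22 h. Cd40 differed by -1.01 (-1.32 to -0.71), -1.50 (-1.80 to -1.20) and 0.46 (0.15 to 0.76) at these hours, and all 6 values passed. For Cd83 the 7 h difference was -1.13 (-1.48 to -0.78) and the 22 h difference 1.96 (1.61 to 2.31). Of the calls of apilimod against the controls, that of Cd80 at 22 h was lost here (-0.49, -1.12 to 0.13), and the rest passed.

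R848+API09 and R848 alone lay close for the 8 genes at 1, 3 and 7 h, with the widest log2 distance for Cd83 at 1 h (0.26). At 22 h R848+API09 was lower for Cd80 (-0.85), Cd86 (-0.59), Cd83 (-0.32) and Icam1 (-0.21), on the array that was also the dimmest at its upper quartile. The part of that array's brightness in these distances was not tested. A fit across the 4 hours, with 4 arrays an arm and the hour as a term, compared 3 pairs of compound arms. For R848+API09 against R848 limma called 0 of the 8 (0 at an unadjusted p under 0.05) and 0% of all genes (182 at an unadjusted p under 0.05). The differences lay between -0.24 for Cd80 (95% interval -0.80 to 0.32) and 0.04 for Cd40 (-1.32 to 1.41). With intervals this wide the test does not show that the arms act alike.

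The same fit called 0 of the 8 for apilimod against R848 and 0 against API09, and 0% and 0% of all genes (limma; at an unadjusted p under 0.05, 1 of the 8 in each, and 1588 and 1613 genes). Cd80 was at -0.87 (95% interval -1.42 to -0.31) against R848 and -0.63 (-1.18 to -0.07) against API09. Cd274 was at 0.80 (-0.09 to 1.69) and 0.82 (-0.07 to 1.71). With the 1 h arrays left out Cd274 was called in both (1.10 and 1.17), and Cd80 against R848 (-1.18). For R848 against medium 0 of the 8 were called (7 at an unadjusted p under 0.05; 0.995% of all genes called by limma, 0.8% higher and 0.196% lower). Cd40 came nearest, at 2.89 ± 0.63 (adjusted p = 0.0521, and 4.48e-04 with the 1 h arrays left out). This fit gives each pair of arms 1 difference shared by all hours. An effect that changes with the hour is averaged and adds to the residual spread. Between 3 and 22 h the apilimod effect changed for 6 of the 8 and the R848 effect for 7. The counts of 0 in this fit therefore cannot decide whether apilimod or R848 acted at single hours.

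Genes for receptors that bind these molecules, best known on T cells, were followed too, and each rise or fall named for them and for the gene lists after them passed an adjusted p of 0.05 in limma. Of 6 such genes 5 were tested, and Ctla4 did not pass the filter. Pdcd1, which encodes PD-1, the receptor of PD-L1, was at 388.3 and 418.3 on the controls at 3 h, at 26.9 with apilimod and at 54.6 on medium. At 7 h the controls were at 246.0 and 284.5, apilimod at 16.1 and medium at 113.0. The controls of both hours lay above all other arrays. Pdcd1 rose with R848 by 2.57 ± 0.12 at 3 h and 1.12 ± 0.12 at 7 h, and was lower with apilimod by log2 differences of -3.29 and -3.13 (standard error 0.12).

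Tnfrsf9, which encodes 4-1BB, was at 141.8 with apilimod at 22 h, and at 43.3 and 49.0 on the controls. It rose there by 1.35 ± 0.12, at the hour when its ligand gene Tnfsf9 was lower. Cd28 was dim, at 8.66 and 10.6 on the controls at 7 h and 40.3 with apilimod. It fell with R848 by 1.47 at 22 h, against a medium array at 62.1, and rose with apilimod by 1.13 ± 0.10 (7 h) and 1.01 ± 0.10 (22 h). Cd40lg and Icos passed with neither R848 nor apilimod at any hour. Of the 7 T cell markers 4 passed the filter: Zap70, Cd3e (25.1 to 39.4), Cd3d (13.9 to 24.2) and Cd8a (16.6 to 24.0), and their part in these values was not tested. The count of 1 higher and 1 lower with apilimod at 3 h (9.19% of all genes called) became 1 in all without either 0 h array or without the R848+API09 array at 1, 3 or 7 h, since Cd28 (0.38 ± 0.10) was then lost. With R848 at 7 h (29.8% of all genes called) the 2 higher became 1 without the R848+API09 array of that hour, since Tnfrsf9 (0.43 ± 0.12) was lost.

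**Figure D4:**
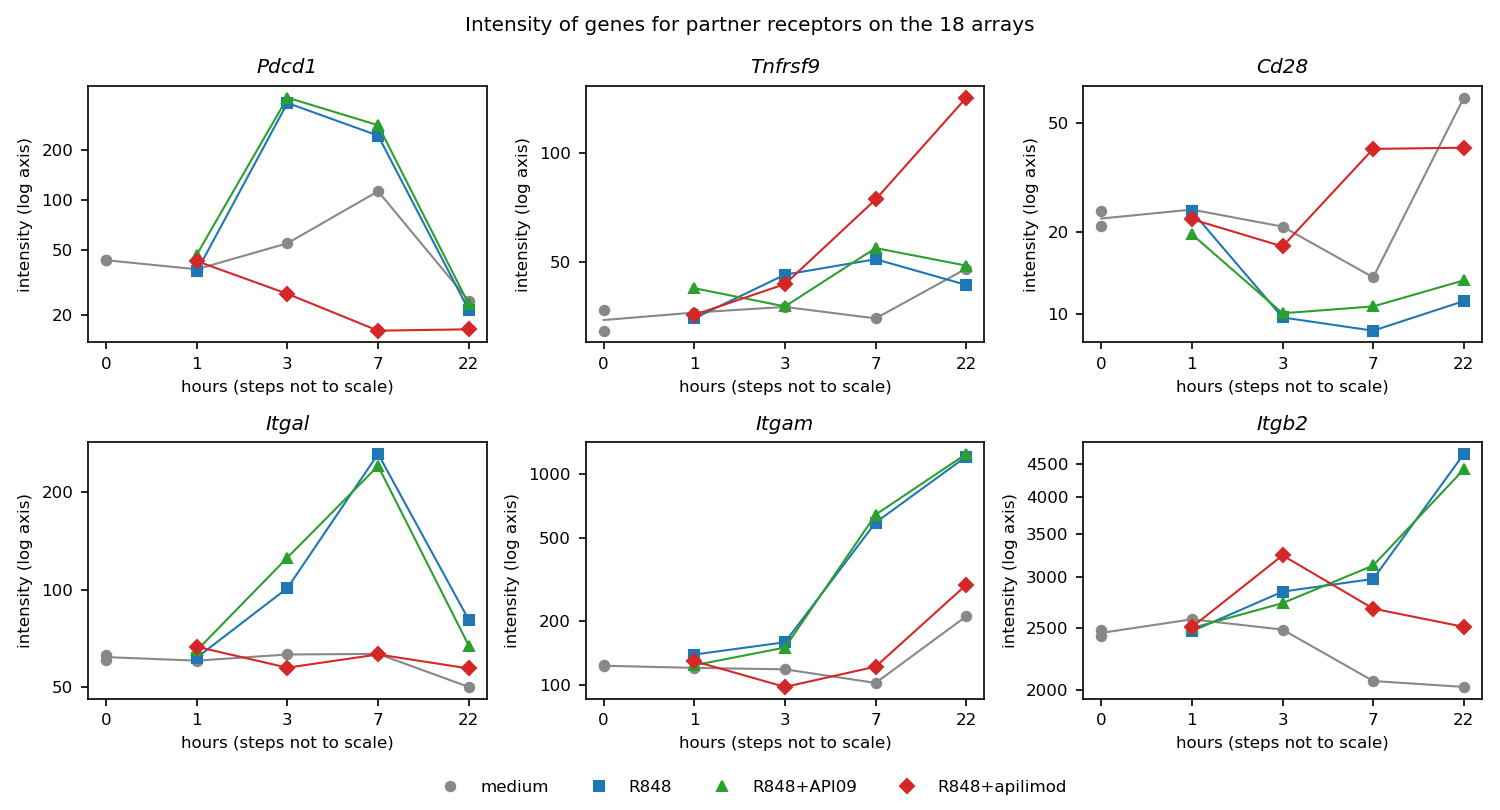
Intensity (log axis) on each of the 18 arrays of 6 genes for receptors that bind the products described, against the hour, in medium, R848, R848+API09 and R848+apilimod. Pdcd1 was high on the controls at 3 and 7 h but not with apilimod, and Tnfrsf9 was highest with apilimod at 22 h.

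Adhesion genes, among them the integrin partners of ICAM-1, were called in both directions. Of 16 adhesion genes tested, 6 rose and 1 fell with R848 at 3 h, and 8 and 3 did at 22 h (15.4% and 45.7% of all genes called). With apilimod 0 rose and 4 fell at 3 h, with counts of 1 and 4 for 7 h and of 3 and 3 for 22 h (median -0.10 at 7 h, beside -0.02 over all genes). The shares of all genes called with apilimod at these hours were 9.19%, 19.6% and 34.5%, so the 22 h count was near that of all genes. Itgal, the alpha chain of LFA-1, was at 261.4 and 240.0 on the controls at 7 h, 63.2 with apilimod and 63.4 on medium. It rose with R848 by 1.75 ± 0.13 and fell with apilimod by 1.75 (standard error 0.13), while its 22 h difference with apilimod, -0.29 ± 0.13, did not pass (adjusted p = 0.098). Itgam, the alpha chain of Mac-1, was at 1215 and 1251 on the controls at 22 h, 298.3 with apilimod and 211.5 on medium. It rose with R848 by 2.46 ± 0.10 and fell with apilimod by 1.99. Itgb2, the beta chain they share, rose with R848 by 1.16 ± 0.09 and fell with apilimod by 0.85 at 22 h. At 3 and 7 h its differences with apilimod were 0.22 ± 0.09 and -0.19 ± 0.09, and neither passed (adjusted p = 0.198 and 0.18). Without the R848+API09 array at 3 h 4 adhesion genes were called with R848 at that hour, in place of the 6 and 1 above.

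Of the CD40 signalling and NF-kB genes called, nearly all rose with R848, while with apilimod the calls went in both directions. Of 14 tested, 10 rose and 0 fell with R848 at 3 h (median 0.91, beside -0.03 over all genes), with counts of 6 and 1 for 7 h and of 8 and 0 for 22 h, beside 15.4%, 29.8% and 45.7% of all genes called. With apilimod 2 rose and 3 fell at 3 h, with counts of 5 and 4 for 7 h and of 3 and 2 for 22 h, beside 9.19%, 19.6% and 34.5% of all genes, so the 22 h count was near that of all genes. Traf1, an adaptor of CD40 and other TNF receptors, rose with R848 by 3.18 ± 0.19 at 3 h and with apilimod by 1.77 ± 0.19 at 22 h. Tnfaip3, an inhibitor of NF-kB signalling, rose with apilimod by 0.99 ± 0.14, 1.48 ± 0.14 and 0.84 ± 0.14 at 3, 7 and 22 h. Bcl3, a nuclear partner of NF-kB, rose with R848 by 3.53 ± 0.10 at 7 h and fell with apilimod by 2.73. Calls with apilimod came to 3 at 3 h without the R848+API09 array of that hour, and to 8 at 22 h without that of 22 h.

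Of 15 antigen presentation genes tested, 1 rose and 0 fell with R848 at 3 h, with counts of 4 and 1 for 7 h and of 3 and 3 for 22 h, which followed the shares of all genes called (15.4%, 29.8% and 45.7%). With apilimod 0 rose and 1 fell at 3 h, with counts of 4 and 3 for 7 h and of 7 and 1 for 22 h (median 0.26, beside 0.03 over all genes), and 9.19%, 19.6% and 34.5% of all genes were called. H2-Ab1 and H2-Aa, chains of a class II molecule, rose by 1.02 ± 0.09 and 0.91 ± 0.15 at 22 h. H2-Ab1 was dim, at 67.2 with apilimod and 26.7 and 23.3 on the controls. Tap1, a peptide transporter gene, fell by 0.93 at 7 h. At 22 h 5 were called without either 0 h array.

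B7 and checkpoint genes moved in both directions, and few TNF superfamily ligand genes could be tested. Of 11 B7 and checkpoint genes 3 rose and 2 fell with R848 at 3 h, with counts of 5 and 3 for 7 h and of 4 and 3 for 22 h (15.4%, 29.8% and 45.7% of all genes called). With apilimod 0 rose and 2 fell at 3 h, with counts of 3 and 4 for 7 h and of 2 and 1 for 22 h (9.19%, 19.6% and 34.5% of all genes called, a larger share than in the list at 22 h). Without the R848+API09 array at 22 h, 5 were called at 3 h and 5 at 22 h. Vsir, which encodes VISTA, fell by 1.89 at 7 h. Havcr2, which encodes TIM-3, fell by 1.03 at 3 h and rose by 1.29 ± 0.10 at 22 h. Of 11 TNF superfamily ligands 3 were tested. With R848 0 rose and 0 fell at 3 h, and the counts were 0 and 1 at 7 h and at 22 h. With apilimod 1 rose and 0 fell at 3 h, and the same counts held at 22 h. The shares of all genes called are those given above. Tnfsf13b, which encodes BAFF, fell with R848 by 1.03 and rose with apilimod by 0.64 ± 0.12 at 22 h. At 7 h with apilimod Tnfsf13b differed by -0.32 ± 0.12 (limma, adjusted p = 0.087). None of these 3 was called at 7 h with apilimod by limma, and 1 was called without the R848+API09 array at 22 h.

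**Figure D5:**
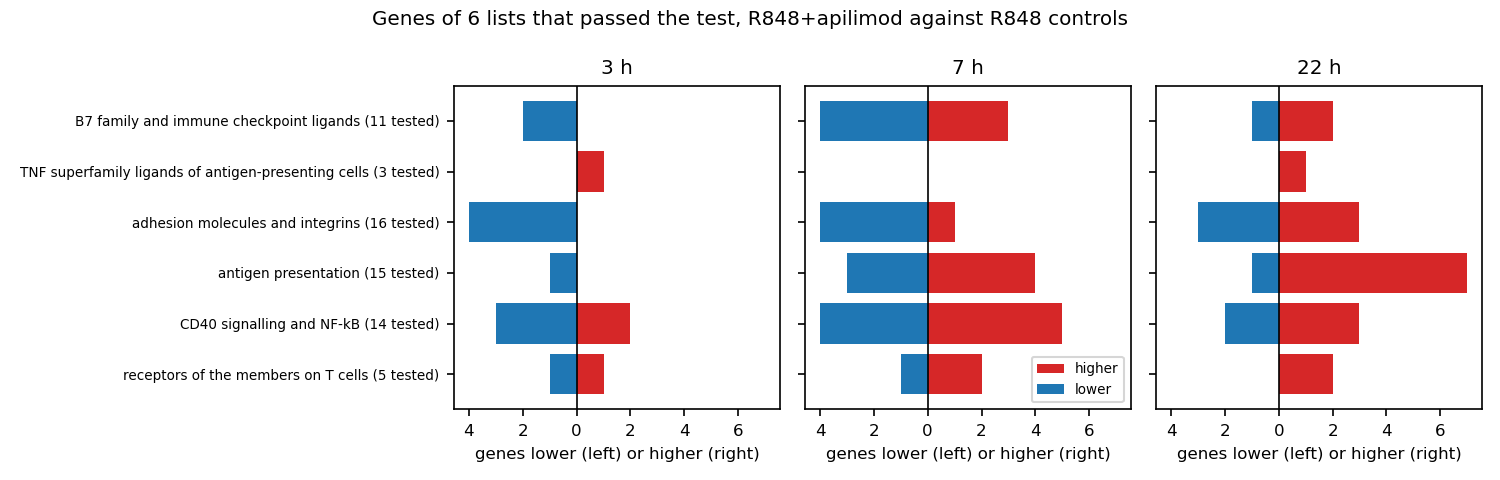
Number of genes of each list that were higher or lower in R848+apilimod (1 array) than in the R848 controls (2 arrays) at an adjusted p of 0.05. The antigen presentation list had 7 higher and 1 lower at 22 h, and the adhesion list 0 higher and 4 lower at 3 h.

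The genes most like each of the 8 in pattern were found by Pearson's r of log2 values over the 18 arrays, a description only, since the arrays share their stimulus. Hcar2, the niacin receptor gene, came closest to Cd40 (r = 0.98), followed by Lcp2 (0.97). Mmp9, a matrix metalloproteinase gene, was nearest to Cd80 (0.96), St3gal1, a sialyltransferase gene, to Cd274 (0.97) and the kinase gene Pim1 to Cd83 (0.93). For Cd86 it was Plekhn1 (0.97), for Icosl the inositol kinase gene Itpkb (0.97), for Tnfsf9 Csrnp1 (0.89) and for Icam1 Opa3 (0.95). Next in line were Pilra for Cd80 (0.95), Sowahc for Cd83 (0.89), Tm9sf4 for Cd86 (0.97) and Slc15a3 for Cd274 (0.97). For Icosl it was Jak2 (0.95), for Tnfsf9 Tnfaip3 (0.88) and for Icam1 Nfkbie (0.95), another NF-kB inhibitor. Among the 28 pairs within the 8 genes, r ran from 0.86 (Cd274 and Cd86) down to -0.66 (Icam1 and Cd86).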

How the data were processed

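Biotin-labelled RNA of RAW cells was measured on 1-colour Affymetrix arrays after NuGEN amplification, per the labels. Each probe set has 1 deposited intensity per array, not on a log scale. The submitters' processing notes list limma, without its role. Background correction, summarisation and normalization were not given in the sources used here, and the deposited scale was kept. Groups came from the sample titles. Of 45101 probe sets 34958 had 1 gene symbol, 932 several and 9160, control probe sets aside, none; symbols were updated through Entrez identifiers. Tests used log2 of intensity plus 16, which understates changes of dim genes, in R 4.3.3 with limma 3.58.1, two-sided, Benjamini-Hochberg adjusted over 12257 genes. The fit within hours gave the R848 and R848+API09 arrays at an hour 1 shared mean, which left 5 residual degrees of freedom, and a lone array is taken to vary as these pairs do. The fit across hours had terms for arm and hour. Genes named besides the 8 are up to 4 with the largest absolute difference per list and comparison, the 2 most like each of the 8 in pattern, Cd68 and Adgre1. The other marker genes, and Ctla4, Cd40lg and Icos, were named after their values were seen. The members, lists and tests were chosen with earlier results of these data known. Alternatives covered scaling, filter, probe set rule, pseudocount, variance estimate, controls, hours and arrays left out. The code was tested on simulated data.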

Additional observations from a re-analysis of the deposited data

Results flagged for a closer look

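The effect of apilimod changed between 3 and 22 h, by a test of the change itself, for 6 of the 8 genes. Of all genes 22.8% were called in this test, 13.3% upward and 9.46% downward. The change on the log2 scale (22 h minus 3 h) was 1.31 for Cd40, 1.98 for Cd83, 0.83 for Cd86, 1.29 for Icam1, 1.01 for Icosl and -1.72 for Tnfsf9. The Cd86 call was lost in several alternatives. The effect of R848 changed between the same hours for 7 of the 8. In that test 25.3% of all genes were called, 9.43% upward and 15.9% downward. The R848 effect became larger by 1.14 for Cd274 and 1.29 for Cd86. The other Cd86 probe set gave R848 effects of 0.46 at 3 h and 0.22 at 22 h, so that direction depends on the probe set. For Cd40 the change was -1.78, for Cd83 -4.93, for Icam1 -2.64, for Icosl -1.59 and for Tnfsf9 -0.64. Part of the Cd83 change lay in medium, at 162.7 at 3 h and 614.1 at 22 h. Each of the changes in these 2 tests rests on 1 array of medium or of R848+apilimod and 2 control arrays an hour.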

How the results depend on the processing

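Of 1125 alternative values for the 76 called differences of the 8 genes within hours, 1104 kept direction and call, 21 lost the call and 0 reversed. Of 644 alternative values for the 44 differences that were not called, 607 stayed as they were. A call was gained by 21, and 16 changed sign without a call. The fit across hours matched the arms by hour, and a block by replicate number could not be fitted because only the medium arrays at 0 h have such numbers. The cause of the changes below was not tested. Across hours, R848 against medium called 2 of the 8 with quantile normalization, with centred arrays or with trend and robust variances, 3 with the filter at the 75th percentile, with a pseudocount of 1 or with the 1 h arrays left out, and 1 with the 22 h arrays left out, in place of 0. Apilimod called 2 against R848 and 1 against API09 with the 1 h arrays left out, in place of 0, and 481 and 545 of all genes. For R848 across hours the count of all genes, 122, ran from 11 with no term for the hour to 1164 with the 1 h arrays left out (199 with quantile normalization, 220 with centring, 207 and 60 with the stricter filter and none, 49 without either 0 h array, 14, 17 and 43 with the 3, 7 or 22 h arrays left out, and 12 with the 2 arms alone). Among the lists, B7 and checkpoint genes with apilimod at 3 h numbered 5 with quantile normalization, 4 with centring and 1 with the mean over probe sets. TNF ligands numbered 2 with centring for R848 at 22 h, and 0 with the stricter filter for R848 at 7 and 22 h and apilimod at 3 and 22 h. Antigen presentation genes numbered 3, 8 and 2 with trend and robust variances for R848 at 3 and 7 h and apilimod at 3 h, 11 with centring for R848 at 22 h, 4 with the stricter filter for apilimod at 7 h and 5 against R848 alone for apilimod at 22 h. Receptor genes numbered 1 with the stricter filter for R848 at 3 and 7 h and apilimod at 3 and 7 h, 0 with it for both at 22 h, 1 against R848 alone for R848 at 7 h, and 1 for apilimod at 3 h with centring, the probe set mean or either control alone. Leaving out 1 array gave 3 to 6 of the 8 for medium at 22 h, 4 to 9 adhesion genes (R848, 3 h), 5 to 8 antigen presentation genes (apilimod, 22 h), 2 to 5 and 3 to 5 B7 genes (apilimod, 3 and 22 h), 3 to 7 and 5 to 8 NF-kB genes (apilimod, 3 and 22 h), 1 to 2 receptor genes (R848, 7 h; apilimod, 3 h) and 0 to 1 TNF ligands (apilimod, 7 h). For medium at 22 h against 0 h, 2696 genes were called, with 4315 without the R848+API09 array at 22 h and 1426 and 1373 without either 0 h array. The R848 effect at 22 h minus 3 h split into 1156 higher and 1945 lower, 2128 and 1782 with quantile normalization and 2141 and 1584 with centring. The apilimod effect at 22 h minus 3 h was called for 2795 genes, and 1861 against R848 alone. Dim genes such as Icosl, Cd86 and Cd28 lie near the filter level, which limits their values.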
